A study of Homo sapiens with 16 samples.

Results

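The genes described here encode the core of the adherens junction, with the epithelial adhesion molecule EPCAM: the classical cadherins CDH1 (E-cadherin) and CDH2 (N-cadherin), the catenins CTNNB1 (β-catenin), JUP (plakoglobin, also called γ-catenin), CTNND1 (p120-catenin) and CTNNA1 (αE-catenin), and EPCAM. They were picked by symbol from a list of 7 names, and all 7 were found among the 18227 genes measured. The list was drawn up with earlier results of these data known. RNA was sequenced from 2 established lung cancer lines, A549 and H2023, each as wild type and as cells labelled knockout for ZC3H12A, which encodes the RNase Regnase-1. Normal culture lasted 3 days and the stem-cell-enriched culture, called oncosphere culture below, lasted 7 days, so the type of culture and its length cannot be told apart. The groups were A549 wild type in normal culture, A549 knockout in normal culture, A549 wild type in oncosphere culture, A549 knockout in oncosphere culture, and the same 4 groups of H2023. Each of the 8 groups held 2 libraries. The knockout libraries of a line came from 1 clone, so the edit and other features of that clone cannot be told apart. The labels do not say whether replicates came from separate cultures, and p-values therefore measure only the spread between these libraries. Because RNA was taken from whole cultures, fewer cells that express a gene and less of its RNA per cell cannot be told apart.

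In an adherens junction, cadherins of neighbouring cells bind each other outside the cell. Inside, the cadherin tail is held by p120-catenin, which keeps the cadherin at the membrane, and by β-catenin or plakoglobin, which in turn bind α-catenin, the link to actin. β-catenin that is not held at the junction is degraded after phosphorylation by a complex built on APC and AXIN, or enters the nucleus and drives Wnt target genes with TCF and LEF factors. Plakoglobin is also a part of desmosomes, the junctions that anchor keratin filaments. E-cadherin is the classical cadherin of epithelia, N-cadherin that of neural and mesenchymal cells, and carcinomas can carry both. EPCAM is a membrane protein of epithelia and carcinomas that is cut to release a signalling fragment.

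The values were TPM, a measure of transcript level scaled for transcript length and for the library total, so levels can be set side by side between genes. Differences were tested with limma on log2(TPM + 1) in 1 model of all 16 libraries and 8 groups, two-sided, with Benjamini-Hochberg adjustment over all genes and a threshold of 0.05, and a log2 fold change (LFC) below is on that scale, with its standard error (SE). It understates the change of genes with low levels. Sequencing depth per library is unknown, since TPM does not keep it. A library held 13824 to 14508 genes at 1 TPM or more. Epithelial keratin and surface markers (6 of 6 measured) summed to between 2568 and 12998 TPM, whereas the 1 measured lung lineage marker, NAPSA, was at 1.02 to 6.03 TPM. The 3 measured fibroblast markers summed to at most 10.1 TPM, the 1 endothelial marker reached 2.76 TPM, and the 2 leukocyte markers, CD14 and LYZ, summed to between 0.48 and 66.2 TPM, highest in A549 oncosphere culture. The targeted mRNA was lower in the libraries labelled knockout only in A549 normal culture (wild type 30.7 and 34.9 TPM, knockout 16.9 and 19.9 TPM). In H2023 oncosphere culture ZC3H12A was at 32.5 and 26.4 TPM in wild type and at 94.6 and 69.2 TPM in knockout. An edit that disrupts a protein need not lower its mRNA, and knockout below means the libraries so labelled.

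**Figure D1:**
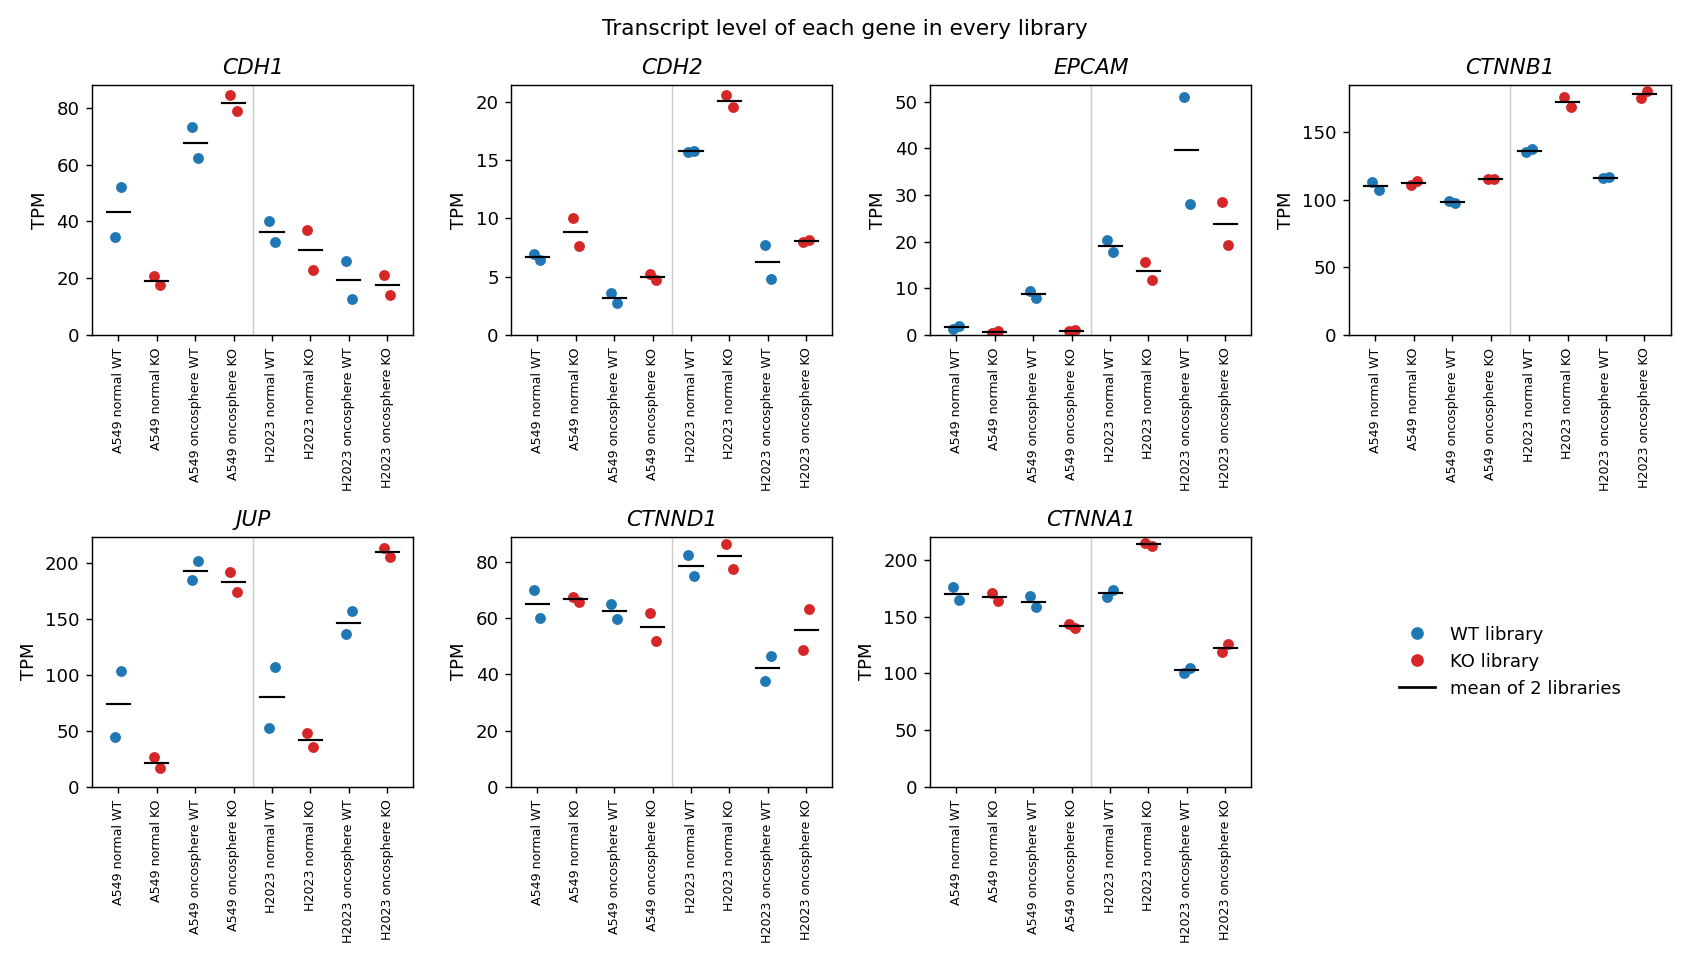
Level of each of the 7 genes in TPM on a linear axis from 0, by group, with 1 point for each of the 16 libraries (blue, wild type; red, labelled knockout) and a black line at the mean of 2 libraries. JUP stands higher in all 8 oncosphere libraries than in all 8 normal ones, and as a ratio of the highest to the lowest group mean EPCAM varies most (60.8-fold) and CTNNB1 least (1.81-fold).

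The abundant members were CTNNA1, with a mean of 156 TPM over the 16 libraries, CTNNB1 with 130 TPM and JUP with 119 TPM, followed by CTNND1 with 63.7 TPM. CDH1 averaged 39.4 TPM, EPCAM 13.5 TPM and CDH2 9.23 TPM. The order of variation was different, with JUP high in both. Between the highest and the lowest of the 8 group means, EPCAM differed 60.8-fold, JUP 9.72-fold, CDH2 6.33-fold and CDH1 4.65-fold, but CTNNA1 2.08-fold, CTNND1 1.95-fold and CTNNB1 1.81-fold.

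CDH1 was highest in A549 oncosphere culture and lowest in H2023 oncosphere culture and A549 knockout cells in normal culture. In A549 normal culture it was at 34.7 and 52.1 TPM in wild type and at 20.6 and 17.7 TPM in knockout, and the groups did not overlap. CDH1 fell in this knockout comparison, with an LFC of -1.11 (SE 0.32) and an adjusted p of 0.0303 by limma. Without wild-type replicate 2 the LFC was -0.83, and the call was lost there and without either knockout library. In the authors' deposited table for A549 normal culture, CDH1 fell by 1.194 on the log2 scale (adjusted p = 2.14e-07). In A549 oncosphere culture CDH1 was at 73.1 and 62.4 TPM in wild type and at 84.5 and 79.0 TPM in knockout. Here the knockout libraries were the higher ones, without passing the test (LFC 0.27, SE 0.32, limma adjusted p = 0.608). The difference of the knockout effect between the A549 cultures was 1.39 (SE 0.45), with a limma adjusted p of 0.0729, and so missed the threshold. In H2023 the CDH1 groups overlapped in both cultures, and normal culture gave 40.2 and 32.6 TPM in wild type and 37.0 and 22.8 TPM in knockout. In oncosphere culture they were at 25.9 and 12.7 TPM in wild type and at 21.3 and 13.9 TPM in knockout.

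The effect of culture on CDH1 had opposite signs in the lines. In A549 knockout cells CDH1 rose in oncosphere culture, with an LFC of 2.04 (SE 0.32) and a limma adjusted p of 0.00066. In A549 wild type the LFC was 0.66 with an adjusted p of 0.118, although both oncosphere libraries lay above both normal ones. In H2023 wild type CDH1 fell, with an LFC of -0.95 and a limma adjusted p of 0.0419. That call was lost under 8 of 13 other settings. Among them were mitochondrial genes left out of the totals (LFC -0.72, adjusted p = 0.137), quantile normalization, median centring and a fit of the groups compared. It was also lost with no mean-variance trend, without either normal replicate and without oncosphere replicate 2 (LFC -0.47). The LFC in H2023 knockout cells was -0.72, with an adjusted p of 0.104. A test of the difference of the culture effect between lines, added after these values were seen, gave -1.61 (SE 0.45) in wild type, with a limma adjusted p of 0.033, and -2.76 (SE 0.45) in knockout, with an adjusted p of 0.00422. The wild-type call was lost under 8 of 17 other settings: quantile normalization, a fit of the groups compared, and the removal of any 1 of 6 of the 8 libraries (all but A549 normal replicate 2 and H2023 oncosphere replicate 1). The knockout call was lost under 0 of 17. Levels of CDH1 therefore stood closer in normal culture, where wild-type H2023 and A549 overlapped, than in oncosphere culture, where H2023 wild type was lower than A549 wild type by an LFC of -1.84 (SE 0.32, limma adjusted p = 0.000527).

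CDH2 was lower in oncosphere culture in both lines and both genotypes. In A549 wild type it was at 6.96 and 6.43 TPM in normal and at 3.60 and 2.74 TPM in oncosphere culture, and in A549 knockout at 10.1 and 7.63 TPM and at 5.26 and 4.75 TPM. In H2023 wild type it was at 15.7 and 15.8 TPM in normal and at 7.75 and 4.78 TPM in oncosphere culture, and in H2023 knockout at 20.6 and 19.6 TPM and at 8.0 and 8.11 TPM. All 4 oncosphere libraries lay below all 4 normal libraries in each line. CDH2 was the 1 member of 7 with this order, which 12.3% of all genes showed. It passed the limma test in each of the 4 culture comparisons, with LFCs of -0.89 and -0.70 in A549 wild type and knockout (adjusted p = 0.00357 and 0.0247) and -1.24 and -1.22 in H2023 (adjusted p = 0.000922 and 0.000669). In a fit of the groups compared the calls in A549 knockout and H2023 wild type were lost (adjusted p = 0.0751 and 0.0668), and that in A549 knockout also without normal replicate 1 or either oncosphere replicate. H2023 held more CDH2 than A549 in wild type, by an LFC of 1.12 in normal and 0.78 in oncosphere culture. The oncosphere call was lost in a fit of the groups compared (adjusted p = 0.0907), without H2023 replicate 1 (LFC 0.48) and without A549 replicate 2 (LFC 0.63).

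Both knockout libraries held more CDH2 than both wild-type libraries in each of the 4 knockout comparisons, an order found in 1.88% of genes and in no other member. The LFCs were close together, at 0.34 in A549 normal, 0.53 in A549 oncosphere, 0.33 in H2023 normal and 0.35 in H2023 oncosphere culture, each with an SE of 0.20. None passed the limma test (adjusted p = 0.263, 0.0816, 0.432 and 0.347). The adjusted p-values that the authors deposited were 0.1243, 0.0737, 0.09446 and 0.7856.

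The ratio of CDH1 to CDH2 within a library sets both cadherins side by side. With culture their LFCs had opposite signs in A549 and the same sign in H2023. CDH1 exceeded CDH2 in all 16 libraries. In A549 normal culture the ratio was 4.98 and 8.11 in wild type and 2.05 and 2.32 in knockout, so the knockout libraries reached the range of H2023, where normal culture gave 2.55 and 2.07 in wild type and 1.80 and 1.17 in knockout. In oncosphere culture the ratio in A549 was 20.3 and 22.8 in wild type and 16.1 and 16.6 in knockout, the highest of the series. In H2023 oncosphere culture it was 3.34 and 2.66 in wild type and 2.66 and 1.72 in knockout. The ratio is a description of the 16 libraries and was not tested.

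**Figure D2:**
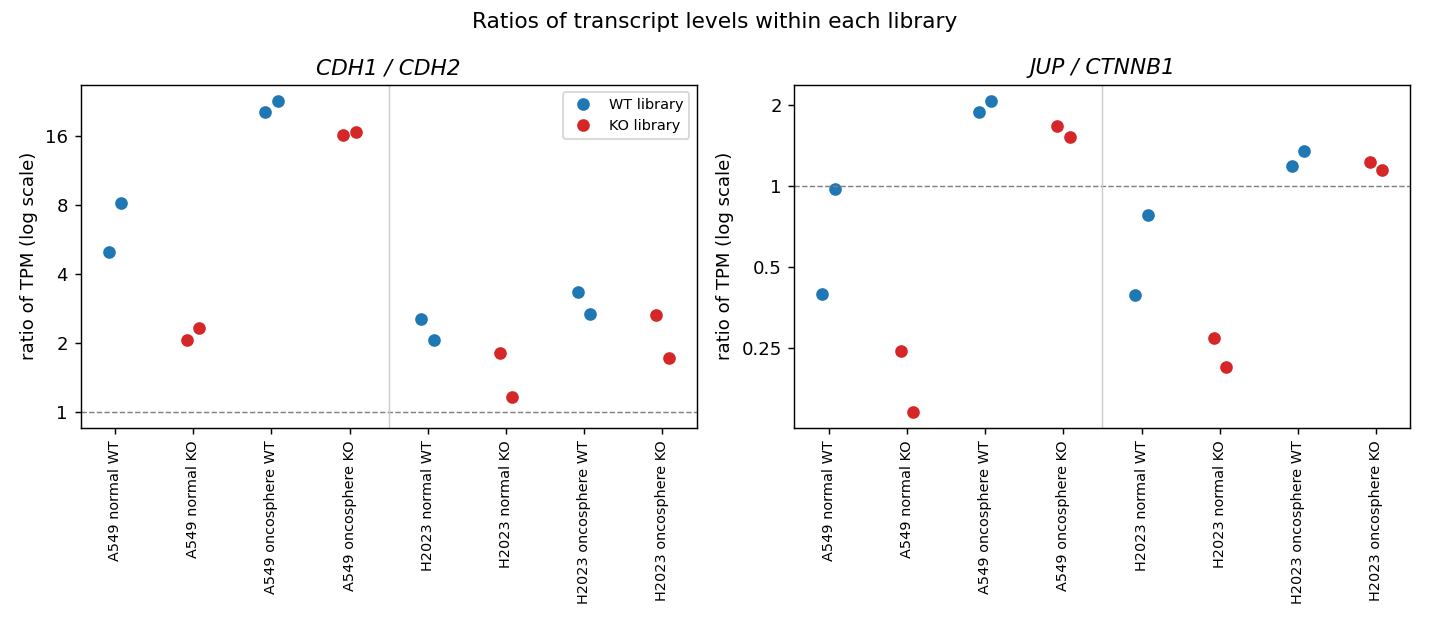
Ratios of TPM within each library, CDH1 to CDH2 (left) and JUP to CTNNB1 (right), by group on log axes (blue, wild type; red, labelled knockout; dashed line, a ratio of 1). CDH1 to CDH2 is highest in A549 oncosphere culture, and JUP to CTNNB1 is below 1 in all 8 normal libraries and above 1 in all 8 oncosphere libraries.

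JUP followed the culture. The windows of 250 bases before its annotated starts are printed here because JUP was the 1 member with a clean separation of cultures. With them stands the upstream of the 2 windows of CDH2, whose levels were lower in oncosphere culture. The sequences are from RefSeq on GRCh38.p14, which held entries for 4 of the 7 members (CTNNB1, CTNNA1, JUP and CDH2), with 9 windows in all. Capitals mark the letters CAGGTG or their reverse complement CACCTG, the core of the E-box that factors of the SNAI and ZEB families are known to bind. The search covered both strands and counted each window once.
JUP, upstream start, chr17:41786712-41786961, minus strand: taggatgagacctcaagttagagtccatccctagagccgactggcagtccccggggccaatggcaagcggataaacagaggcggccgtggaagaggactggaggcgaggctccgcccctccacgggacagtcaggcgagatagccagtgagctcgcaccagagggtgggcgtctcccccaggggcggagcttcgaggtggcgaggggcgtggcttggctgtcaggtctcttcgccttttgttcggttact
JUP, downstream start, chr17:41785977-41786226, minus strand: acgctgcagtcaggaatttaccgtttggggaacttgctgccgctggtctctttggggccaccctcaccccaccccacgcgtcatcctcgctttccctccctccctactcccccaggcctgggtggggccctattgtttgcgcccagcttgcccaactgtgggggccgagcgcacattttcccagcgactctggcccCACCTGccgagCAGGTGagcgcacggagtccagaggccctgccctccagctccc
CDH2, upstream start, chr18:28177131-28177380, minus strand: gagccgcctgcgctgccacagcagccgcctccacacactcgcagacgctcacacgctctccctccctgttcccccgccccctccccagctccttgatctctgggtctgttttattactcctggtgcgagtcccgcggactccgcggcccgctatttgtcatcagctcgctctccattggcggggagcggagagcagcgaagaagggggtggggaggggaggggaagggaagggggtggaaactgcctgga
The downstream JUP start holds the motif on each strand, beginning 54 and 43 bases before the start. It was 1 of the 9 member windows with a match. Among 34943 such windows of all genes, 17.5% held at least 1 match and 2.53% at least 2. A match is a description of the letters only.

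In normal culture JUP was at 44.7 and 104 TPM in A549 wild type, at 26.8 and 16.4 TPM in A549 knockout, at 52.7 and 107 TPM in H2023 wild type and at 47.6 and 35.6 TPM in H2023 knockout. In oncosphere culture the same groups gave 185 and 202 TPM, 192 and 174 TPM, 136 and 157 TPM, and 214 and 206 TPM. All 8 oncosphere libraries lay above all 8 normal libraries, an order that 1.37% of genes showed. The wild-type replicates in normal culture differed 2.32-fold in A549 and 2.03-fold in H2023, more than those of any other group of JUP. JUP rose in oncosphere culture in A549 wild type (LFC 1.49, SE 0.37, limma adjusted p = 0.00633), in A549 knockout (LFC 3.06, adjusted p = 0.000117) and in H2023 knockout (LFC 2.32, adjusted p = 0.000529). In H2023 wild type the LFC was 0.95 with an adjusted p of 0.0758, and with mitochondrial genes left out of the totals it was 1.2 with an adjusted p of 0.0448. Without wild-type replicate 1 in normal culture, the A549 wild-type LFC was 0.89 and no longer passed.

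The knockout comparison of JUP passed only in A549 normal culture, where the LFC was -1.65 (SE 0.37, limma adjusted p = 0.00964). The LFC was -1.05 without wild-type replicate 2, and the call was lost there, without knockout replicate 2 and in a fit of the 4 libraries alone (adjusted p = 0.0712). The authors' deposited table gave -1.711 on the log2 scale (adjusted p = 0.03658). In H2023 normal culture both knockout libraries also lay below both wild-type libraries, with an LFC of -0.85 and an adjusted p of 0.257. In oncosphere culture the LFC was -0.08 in A549 and 0.52 in H2023, neither past the threshold. The difference of the knockout effect between cultures was 1.57 (SE 0.52) in A549 and 1.37 in H2023, with limma adjusted p-values of 0.0799 and 0.61. The gap between the genotypes in normal culture was thus not shown to differ from that in oncosphere culture.

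The ratio of JUP to CTNNB1, the alternative binders of the same cadherin site, separated the cultures. It lay between 0.144 and 0.971 in the 8 normal libraries and between 1.14 and 2.07 in the 8 oncosphere libraries. The 4 lowest normal values were those of knockout, at 0.243 and 0.144 in A549 and 0.272 and 0.212 in H2023, and the highest oncosphere values those of A549 wild type, at 1.87 and 2.07.

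All 8 H2023 libraries held more CTNNB1 than all 8 A549 libraries. EPCAM was the other member with this order, which 8.95% of genes showed. The nearest CTNNB1 values were 115.61 TPM in H2023 wild type and 115.29 TPM in A549 knockout, both in oncosphere culture. Between wild-type lines the LFC was 0.31 in normal culture (limma adjusted p = 0.00574), a call lost with median centring and in a fit of the groups compared. In oncosphere culture it was 0.24 (limma adjusted p = 0.0175). This call was lost under 7 of 13 other settings, among them the removal of any 1 of the 4 libraries. In H2023 oncosphere culture CTNNB1 was at 116 and 117 TPM in wild type and at 175 and 180 TPM in knockout, without overlap. CTNNB1 rose in this comparison, with an LFC of 0.61 (SE 0.07, limma adjusted p = 0.00114). In a limma fit of these 4 libraries alone 0 genes passed (2828 at an unadjusted p under 0.05), and CTNNB1 had an adjusted p of 0.212. The authors' deposited table gave 0.5225 on the log2 scale (adjusted p = 0.04813). In H2023 normal culture it was at 135 and 137 TPM in wild type and at 175 and 168 TPM in knockout, and it rose with an LFC of 0.33 (limma adjusted p = 0.0314). In A549 oncosphere culture it was at 98.8 and 97.2 TPM in wild type and at 115 TPM in both knockout libraries, an LFC of 0.23 (adjusted p = 0.0451). The H2023 normal call was lost under 8 of 14 other settings, among them the authors' values and the removal of any 1 of its 4 libraries, and the A549 oncosphere call under 12 of 14. In A549 normal culture the groups overlapped (LFC 0.03). The knockout effect in oncosphere culture was larger in H2023 than in A549, with a difference of 0.38 (SE 0.10, limma adjusted p = 0.0277) that was lost under 10 of 17 other settings.

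CTNND1 and CTNNA1 were lower in H2023 oncosphere culture. CTNND1 was at 82.5 and 74.9 TPM in H2023 wild type in normal culture and at 37.7 and 46.5 TPM in oncosphere culture, and in knockout at 86.6 and 77.7 TPM and at 48.7 and 63.2 TPM. It fell in both genotypes, with LFCs of -0.89 (SE 0.15, limma adjusted p = 0.00101) and -0.55 (adjusted p = 0.0124). The call in H2023 knockout was lost under 6 of 13 other settings, among them 3 other scalings and a fit of the groups compared. That in H2023 wild type was lost only in a fit of the groups compared. CTNNA1 was at 167 and 174 TPM in H2023 wild type in normal culture and at 101 and 105 TPM in oncosphere culture, and in knockout at 215 and 213 TPM and at 119 and 126 TPM. Its LFCs were -0.73 (SE 0.08, limma adjusted p = 9e-05) and -0.80 (adjusted p = 2.35e-05). In A549 CTNND1 lay between 52.0 and 70.0 TPM in all 8 libraries and passed in no culture or knockout comparison. CTNNA1 fell slightly in A549 knockout cells (LFC -0.24, limma adjusted p = 0.0484), a call lost under 11 of 13 other settings. The culture effect differed between lines for CTNNA1 in wild type (difference -0.67, SE 0.11, limma adjusted p = 0.00315) and knockout (-0.56, adjusted p = 0.0127), and for CTNND1 in wild type (-0.84, SE 0.21, adjusted p = 0.0205). These calls were lost under 0, 3 and 5 of 17 other settings.

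No knockout comparison of CTNNA1 or CTNND1 passed at the settings used throughout. Under others, CTNNA1 passed in H2023 normal culture with a pseudocount of 5 TPM, mitochondrial genes left out (adjusted p = 0.0483), quantile normalization or median centring, and in A549 oncosphere culture with mitochondrial genes left out (adjusted p = 0.0469). CTNND1 passed in H2023 oncosphere culture with the replicate number as a block. For CTNNA1 the LFC was 0.32 (limma adjusted p = 0.0515) in H2023 normal, 0.25 (adjusted p = 0.0878) in H2023 oncosphere and -0.20 (adjusted p = 0.093) in A549 oncosphere culture, with no overlap of the groups in any of these. The signs were opposite in the lines, and the difference between them in oncosphere culture, 0.45 (SE 0.11), passed with a limma adjusted p of 0.0166. It was lost in a fit of the groups compared (adjusted p = 0.0768) and without A549 wild-type replicate 1 or replicate 2 of either knockout group. CTNND1 shares its strand and locus with the readthrough gene TMX2-CTNND1, so its reads could be split between them.

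EPCAM separated the lines, and in A549 it differed with culture and, in oncosphere culture, with genotype. It was at 1.24 and 1.98 TPM in A549 wild type in normal culture and at 9.40 and 7.94 TPM in oncosphere culture. In A549 knockout it was at 0.37 and 0.93 TPM in normal and at 0.82 and 1.03 TPM in oncosphere culture. All 6 other A549 libraries thus lay at or below 1.98 TPM. EPCAM rose in oncosphere culture in A549 wild type (LFC 1.90, SE 0.29, limma adjusted p = 0.000258). In knockout the LFC was 0.24, with an adjusted p of 0.616. In oncosphere culture EPCAM was lower in knockout, with an LFC of -2.33 (SE 0.29, limma adjusted p = 0.000152) and a mean TPM 0.107 of that in wild type. The authors' deposited table gave -3.198 on the log2 scale (adjusted p = 9.353e-12), at a mean normalized count of 84.04. In normal culture both knockout libraries also lay below both wild-type libraries, with an LFC of -0.67 (limma adjusted p = 0.135). That comparison passed with a pseudocount of 0.1 TPM and with the replicate number as a block. The authors' deposited table gave -1.755 on the log2 scale for normal culture (adjusted p = 0.06518). Their mean normalized count there was 21.69, so little depth lay behind these values. The difference of the knockout effect between the A549 cultures was -1.66 (SE 0.41, limma adjusted p = 0.0269). That call was lost with a pseudocount of 0.1 or 5 TPM and without any 1 of 5 of the 8 libraries, among them wild-type replicate 1 of each culture.

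In H2023 EPCAM was at 20.3 and 17.8 TPM in wild type in normal culture and at 51.0 and 28.1 TPM in oncosphere culture. In H2023 knockout it was at 15.6 and 11.9 TPM and at 28.4 and 19.3 TPM. Each of these 8 values was above all 8 values of A549. EPCAM rose in oncosphere culture in H2023 wild type (LFC 0.96, SE 0.29, limma adjusted p = 0.0282), a call lost under 5 of 13 other settings. These were a pseudocount of 0.1 TPM, a fit of the groups compared, and the removal of oncosphere replicate 1 (LFC 0.54) or either normal replicate. The LFC in H2023 knockout was 0.74, with an adjusted p of 0.0707. The knockout LFCs of -0.45 in normal and -0.67 in oncosphere culture did not pass (limma adjusted p = 0.462 and 0.205). The knockout effect in oncosphere culture differed between the lines by 1.65 (SE 0.41, limma adjusted p = 0.0168). That call was lost with a pseudocount of 5 TPM (0.61, adjusted p = 0.223), in a fit of the groups compared (adjusted p = 0.0521), and without A549 wild-type or knockout replicate 1, H2023 wild-type replicate 2 or H2023 knockout replicate 1. In wild type EPCAM was higher in H2023 than in A549 by an LFC of 2.95 in normal culture (limma adjusted p = 1.23e-05) and of 2.01 in oncosphere culture (adjusted p = 0.000148).

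**Figure D3:**
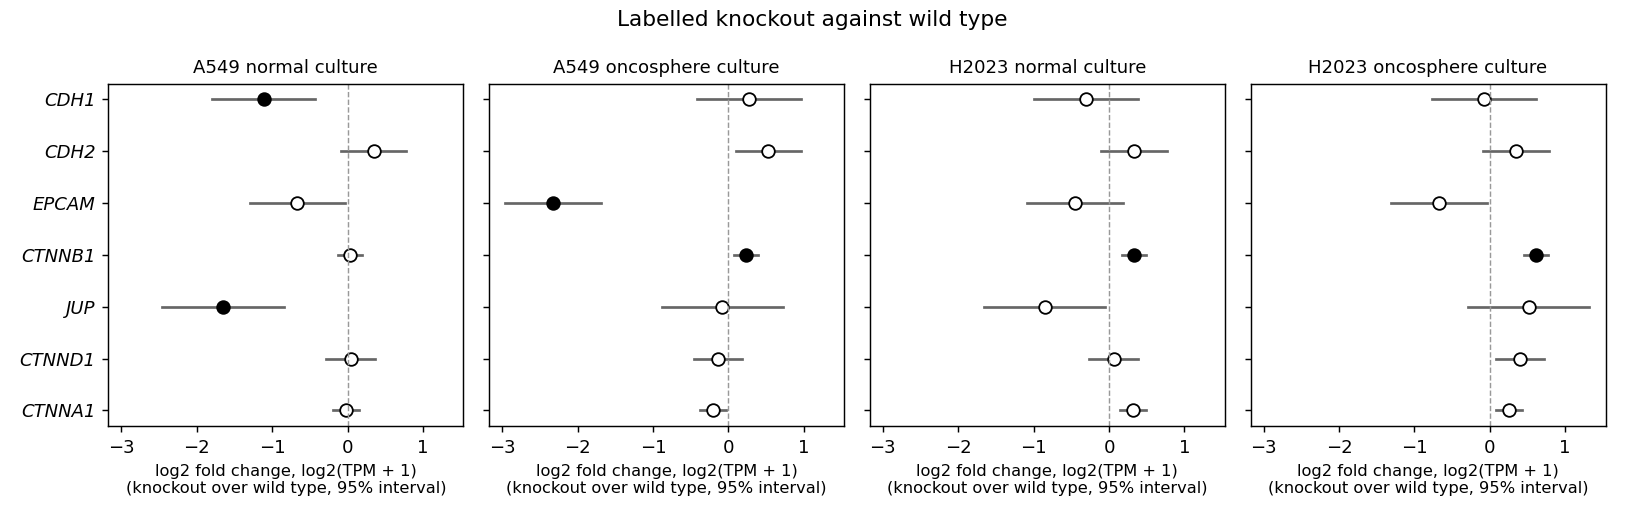
Log2 fold change of labelled knockout over wild type on the log2(TPM + 1) scale, for each of the 7 genes in the 4 lines and cultures, from limma over 16 libraries; bars are 95% intervals and filled points passed an adjusted p of 0.05. The passing genes are CDH1 and JUP in A549 normal culture, EPCAM and CTNNB1 in A549 oncosphere culture, and CTNNB1 in both H2023 cultures.

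Counted over all members, 2 of 7 passed in A549 normal culture (CDH1 and JUP, both lower), against 17.7% of all genes (7.32% higher and 10.4% lower). In A549 oncosphere culture 2 of 7 passed (EPCAM lower, CTNNB1 higher), against 20.7% of all genes (10.2% higher and 10.5% lower). In H2023 normal culture 1 of 7 passed (CTNNB1 higher), against 3% of all genes (1.03% higher and 1.97% lower). In H2023 oncosphere culture CTNNB1 was again the 1 member of 7, against 5.56% of all genes (3.17% higher and 2.4% lower). By the adjusted p of the authors' deposited tables, the shares of genes past 0.05 were 22.1%, 20.7%, 10.8% and 5.07% in the same order. With 7 members, shares of 1 or 2 are not set apart from these backgrounds. The median LFC of the members was -0.03 in A549 normal culture, where the median of all genes was also -0.03. Between the lines, the knockout effect differed for 3 of 7 members in oncosphere culture (CTNNA1, CTNNB1 and EPCAM), against 16.3% of genes (9.37% higher and 6.9% lower), and for 0 of 7 in normal culture by limma (2 at an unadjusted p under 0.05), against 12.1% of genes (6.61% higher and 5.46% lower). Between cultures it differed for 1 of 7 in A549 (EPCAM), against 9.71% of genes (5.61% higher and 4.1% lower), and for 0 of 7 in H2023 by limma (2 at an unadjusted p under 0.05), where 1 gene passed, 0.00549% of all.

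**Figure D4:**
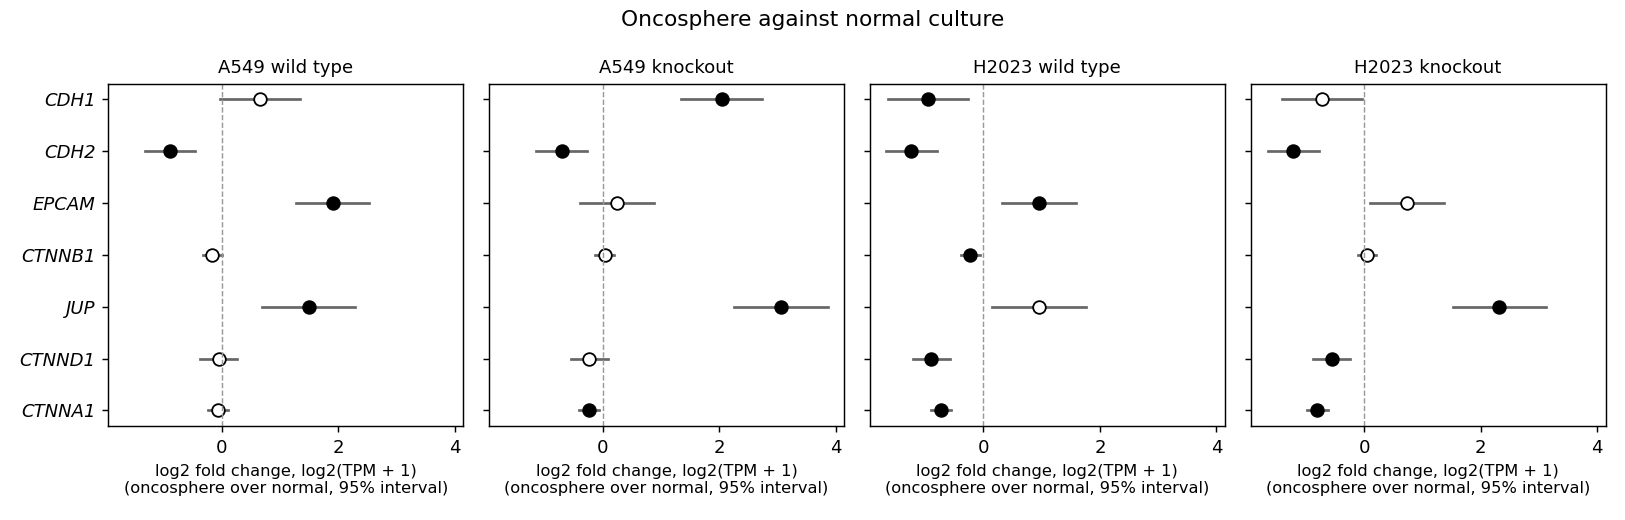
Log2 fold change of oncosphere over normal culture on the log2(TPM + 1) scale, for each of the 7 genes in the 2 lines and genotypes, from limma over 16 libraries; bars are 95% intervals and filled points passed an adjusted p of 0.05. CDH2 lies below 0 in all 4 panels and JUP above 0 in all 4, while CDH1 is above 0 in A549 and below 0 in H2023.

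In A549 wild type 3 of 7 passed (EPCAM and JUP higher, CDH2 lower), against 41.5% of all genes (19.1% higher and 22.4% lower), and in A549 knockout 4 of 7 passed (CDH1 and JUP higher, CDH2 and CTNNA1 lower), against 22.4% (11.4% higher and 11% lower). In H2023 wild type 6 of 7 passed (EPCAM higher; CDH1, CDH2, CTNNA1, CTNNB1 and CTNND1 lower), against 27.4% of genes (5.17% higher and 22.2% lower), and in H2023 knockout 4 of 7 (JUP higher; CDH2, CTNNA1 and CTNND1 lower), against 32.5% (9.76% higher and 22.7% lower). The share of TPM on mitochondrial genes was 10.3% to 18.7% in normal and 19.5% to 25.6% in oncosphere culture, and the median LFC of all genes was -0.18 in H2023 wild type and -0.12 in H2023 knockout. With mitochondrial genes left out and the rest rescaled these medians were -0.02 and 0.02. Relative to that shift CTNNB1 did not fall in H2023 wild type: its LFC was -0.23 (limma adjusted p = 0.0387) before and 0.02 after rescaling. CTNNA1, CTNND1 and CDH2 in H2023 wild type kept their calls, with rescaled LFCs of -0.49, -0.65 and -1.04. In H2023 knockout CTNND1 then missed the threshold (LFC -0.34, adjusted p = 0.101), and EPCAM (LFC 0.96, adjusted p = 0.0315) and CTNNB1 (LFC 0.27, adjusted p = 0.0215) passed. The culture effect differed between lines for 3 of 7 members in wild type (CDH1, CTNNA1 and CTNND1), against 14.1% of genes (3.79% higher and 10.3% lower), and for 2 of 7 in knockout (CDH1 and CTNNA1), against 7.21% (1.68% higher and 5.53% lower). Between wild-type lines 3 of 7 members passed in normal culture (CDH2, CTNNB1 and EPCAM, all higher in H2023), against 41.5% of genes (26.6% higher and 14.9% lower). In oncosphere culture 6 of 7 passed (CDH2, CTNNB1 and EPCAM higher and CDH1, CTNNA1 and CTNND1 lower in H2023), against 47.8% (23.4% higher and 24.4% lower), and JUP did not (LFC -0.40, limma adjusted p = 0.402).

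Transcription factors known to repress or sustain CDH1 were measured for 7 of 10 listed. In A549 normal culture 4 of the 7 were higher in knockout, against 7.32% of all genes. They were the known CDH1 repressors SNAI2 (LFC 2.98), SNAI1 (LFC 1.98), TWIST1 (LFC 1.42) and ZEB2 (LFC 1.12). ZEB1 and TCF3, also on the list, did not pass there. SNAI2 was at 0.52 and 0.53 TPM in wild type and at 8.54 and 14.1 TPM in knockout. ELF3, an epithelial factor, fell with an LFC of -2.58, and its 2 wild-type libraries held 117 and 193 TPM beside 24.6 and 23.8 TPM in knockout. In oncosphere culture of A549, SNAI2, TWIST1, ZEB1 and ZEB2 were higher in knockout (LFC 1.43, 1.18, 0.77 and 0.96) and ELF3 was lower (LFC -1.57), but CDH1 did not pass there. There 10.2% of all genes were higher and 10.5% lower in knockout. The median LFC of the list, which mixes repressors with ELF3, was 1.12 in A549 normal and 0.92 in A549 oncosphere culture, beside -0.03 and 0.03 over all genes. In H2023 normal culture 0 of 7 passed by limma (3 at an unadjusted p under 0.05, 1 past the threshold in the authors' deposited table), and in H2023 oncosphere culture TWIST1 alone was higher (LFC 1.04). By limma 3% and 5.56% of all genes passed in these H2023 comparisons. Markers of cell state differed between genotypes in A549 normal culture, where CDH1 and JUP fell, and in other comparisons too. In A549 normal culture the 6 epithelial markers summed to 9128 and 9316 TPM in wild type and to 2568 and 4998 TPM in knockout, a sum made up almost wholly of KRT8, KRT18 and KRT7. KRT8, KRT18 and KRT19 passed as lower, KRT7 overlapped between the groups (LFC -0.05), and MUC1 (LFC 0.83) and CLDN4 (LFC 0.33) were higher in both knockout libraries without passing the test. The 4 mesenchymal markers summed to 1687 and 2230 TPM in wild type and to 2373 and 2978 TPM in knockout, with SPARC and VIM higher. The mesenchymal sum was also higher in knockout in A549 oncosphere culture, at 3607 and 3812 TPM beside 2639 and 2642 TPM in wild type. Neither CDH1 nor JUP passed there, and the epithelial sums overlapped. Gene by gene, KRT8 and KRT18 overlapped, whereas KRT7, KRT19, MUC1 and CLDN4 were lower in both A549 oncosphere knockout libraries than in both wild-type ones. In H2023 normal culture the epithelial sum was higher in knockout, at 12306 and 12998 TPM beside 8726 and 9366 TPM in wild type. KRT8 and KRT18 made this rise, and KRT7 overlapped. KRT19, MUC1 and CLDN4 went the other way, with KRT19 at 374 and 258 TPM in wild type and 126 and 130 TPM in knockout. The part of these factors and markers in the fall of CDH1 and JUP was not tested.

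Of 12 other cadherins measured of 20 listed, CDH17 (liver-intestine cadherin) was the most changed in A549 knockout cells. It was at 2.70 and 5.68 TPM in A549 wild type and at 0.14 and 0.02 TPM in knockout in normal culture. In oncosphere culture it was at 81.7 and 61.9 TPM in wild type and at 4.92 and 2.05 TPM in knockout. The LFCs were -2.20 (limma adjusted p = 0.000403) and -4.09 (adjusted p = 3e-06), the same sign as for EPCAM, and CDH17 rose in oncosphere culture in both A549 genotypes (LFC 3.86 and 1.98). In H2023 CDH17 lay between 72.7 and 134 TPM and did not pass in knockout or culture comparisons. CDH16, a kidney cadherin, rose in oncosphere culture in A549 wild type (LFC 2.68) and in H2023 wild type and knockout (LFC 2.40 and 4.27). Its A549 knockout libraries in oncosphere culture were at 7.23 and 0.95 TPM, too far apart to give a value there. CDH4 (R-cadherin) fell in all 4 culture comparisons, though not in H2023 wild type after centring on the median. CDH19 was lower in A549 knockout in both cultures (LFC -1.28 and -1.37).

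EPCAM has known membrane partners, of which 6 of 7 listed were measured. CLDN7, a claudin that binds EPCAM, was at 16.4 and 9.72 TPM in A549 wild type in oncosphere culture and at 0.18 and 0.12 TPM in knockout, an LFC of -3.57 (limma adjusted p = 2.2e-05). It was the 1 partner of 6 that passed there, and 0 of 6 passed by limma in A549 normal culture (0 at an unadjusted p under 0.05, 1 past the threshold in the authors' deposited table). By limma 20.7% and 17.7% of all genes passed in these comparisons, so the counts of partners are not set apart from the background. With culture, CD44, TSPAN8 and the protease inhibitors SPINT1 and SPINT2 rose in all 4 comparisons, and they stayed called under 3 other scalings. Of all genes, 19.1% and 11.4% rose in A549 wild type and knockout, and 5.17% and 9.76% in H2023. The share of genes that rose in all 4 was not computed. TSPAN8 was at 0.28 and 0.63 TPM in A549 wild type in normal and at 17.2 and 50.0 TPM in oncosphere culture (LFC 4.40). SPINT1 rose by LFCs of 1.95 and 1.5 in A549 and 1.11 and 2.32 in H2023. In H2023 oncosphere culture CD44, CD9 and SPINT2 were higher in knockout (LFC 0.92, 1.11 and 0.66), where EPCAM was not. Among proteases that cut these proteins, ST14 was lower in A549 oncosphere knockout cells (LFC -1.14) and FURIN was higher in A549 normal knockout cells (LFC 1.01). ST14 was scarce in A549 oncosphere culture, at 2.08 and 0.85 TPM in wild type and at 0.18 and 0.0 TPM in knockout.

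Among 8 desmosome genes measured of 12 listed, the plaque genes PKP2 and PKP3 were lower in A549 knockout in normal culture (LFC -1.45 and -0.56) together with JUP. In A549 oncosphere culture PKP2 (LFC -2.22), PKP3 (LFC -0.64) and DSP, which ties the plaque to keratin (LFC -0.90), were lower, whereas JUP was not. DSP was also lower in knockout in H2023 normal (LFC -1.26) and H2023 oncosphere culture (LFC -0.99). With culture, DSC2 rose in both A549 genotypes (LFC 0.93 and 1.24) and DSP in A549 wild type (LFC 0.84), while DSG2 passed in none of the 4 culture comparisons, and PKP2 fell in both knockout lines (LFC -0.95 in A549 and -1.77 in H2023).

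Of the actin linkers of the junction (6 of 6 measured), 3 fell and 1 rose in oncosphere culture in A549 wild type, 4 fell and 1 rose in A549 knockout, and 5 and 4 fell and 0 rose in H2023 wild type and knockout. Of all genes, 22.4%, 11%, 22.2% and 22.7% fell in these comparisons. The median LFC of the list was -0.63, -0.61, -0.86 and -0.90, beside -0.02, -0.01, -0.18 and -0.12 over all genes. ACTN1 and AJUBA fell in all 4 culture comparisons, ACTN1 by LFCs of -0.53 to -1.18 and AJUBA by -1.39 to -2.26. AJUBA was at 49.0 and 42.6 TPM in A549 wild type in normal and at 22.3 and 12.6 TPM in oncosphere culture. VCL, the vinculin that α-catenin recruits, fell in A549 wild type (LFC -0.87) and H2023 knockout (LFC -0.87), and in H2023 wild type (LFC -0.60) before but not after rescaling. LIMA1 was the exception in A549, where it rose in both genotypes (LFC 2.67 and 1.37). Among the 5 genes of the nectins and afadin, another adhesion system of the same junction, AFDN was lower in A549 knockout in both cultures (LFC -0.51 and -0.83), NECTIN2 was higher in A549 normal knockout cells (LFC 0.73) and NECTIN3 in A549 oncosphere knockout cells (LFC 0.92). CTNNAL1, an α-catenin relative, fell in oncosphere culture in all 4 comparisons, by LFCs of -0.68 to -3.0.

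The Wnt side of CTNNB1 was read from 11 of 12 target genes and from 8 of 8 destruction complex genes. In H2023, where CTNNB1 was higher in knockout, 0 of 11 targets passed by limma in both cultures. Since 3% and 5.56% of all genes passed by limma there, this count is near the limma background. Without adjustment 2 in normal and 3 in oncosphere culture had a limma p under 0.05. By the authors' deposited adjusted p, 4 of 11 targets passed in H2023 normal culture, beside 10.8% of all genes. In H2023 oncosphere culture 0 of 11 passed by that adjusted p, beside 5.07% of all genes. By the authors' values the share of targets in normal culture was thus above that of all genes, a difference that was not tested. In A549 oncosphere culture LGR5, NKD1, TCF7 and ZNRF3 were higher in knockout (LFC 1.64, 1.51, 1.39 and 1.26) and RNF43 was lower (LFC -1.76). In A549 normal culture CCND1 (LFC -1.57) and RNF43 (LFC -3.07) were lower and none was higher. RNF43 was at 11.5 and 11.8 TPM in A549 wild type in normal culture and at 0.28 and 0.77 TPM in knockout. MYC and CCND1 fell in oncosphere culture in A549 wild type (LFC -1.35 and -1.38), and in both H2023 genotypes CCND1 fell under all 4 scalings. In the destruction complex BTRC was the 1 gene of 8 that passed in a knockout comparison, in A549 oncosphere culture, where 20.7% of all genes passed. AXIN2, itself a Wnt target, rose in A549 knockout cells in oncosphere culture (LFC 1.24). Whether these genes moved because of CTNNB1 was not tested.

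Genes whose group means were most like those of CDH1, CDH2 and EPCAM were ranked by Pearson's r of mean log2(TPM + 1) over the 8 groups, among 4218 genes. The 8 groups share lines and clones, so r is a description with no test. For CDH1 they were ACOX2 (r = 0.93), SERPINB9 (r = 0.93) and ITGA6 (r = 0.92), and the most opposite gene was UAP1L1 (r = -0.88). For CDH2 they were COMMD3-BMI1, a readthrough gene that can share reads with its neighbours (r = 0.99), JAK1 (r = 0.99) and CBX5 (r = 0.98), and the opposite was FGL1 (r = -0.98). For EPCAM they were PPP1R1C (r = 0.99), FN3K (r = 0.98) and KRT19 (r = 0.98), and the opposite was TRIML2 (r = -0.99). KRT19 was at 46.8 and 101 TPM in A549 wild type in oncosphere culture and at 3.29 and 5.92 TPM in knockout. Among the members themselves r was -0.42 between CDH1 and CDH2, -0.43 between CDH1 and EPCAM and 0.72 between CDH2 and CTNNB1.

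All 7 genes are protein-coding, and their positions are those of GENCODE on GRCh38. CDH1 (ENSG00000039068) lies on chromosome 16 at 68737225 to 68835548 on the plus strand, CDH2 (ENSG00000170558) on chromosome 18 at 27950966 to 28177446 on the minus strand, and EPCAM (ENSG00000119888) on chromosome 2 at 47345158 to 47387601 on the plus strand. CTNNB1 (ENSG00000168036) lies on chromosome 3 at 41194741 to 41260096 on the plus strand and overlaps ULK4 on the other strand. JUP (ENSG00000173801) lies on chromosome 17 at 41754604 to 41786931 on the minus strand. CTNND1 (ENSG00000198561) lies on chromosome 11 at 57753243 to 57819546 and CTNNA1 (ENSG00000044115) on chromosome 5 at 138610967 to 138935034, both on the plus strand. LRRTM2 lies within CTNNA1 on the other strand. The libraries were stranded, but whether counting used the strand is not given in the sources used here.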

How the data were processed

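Each line and culture has its own deposited file of 18361 rows and 4 libraries, which makes 4 files. After 119 identifiers with several rows of identical values were reduced to 1 row each, 18227 genes were left. The authors deposited gene levels in TPM. Per the file headers, they also give a mean normalized count (a signal averaged over the 4 libraries), a log2 fold change between genotypes and its error, a test statistic (a score), and a p-value before and after adjustment. The score and the fold change had opposite signs for all 18361 rows in every file, and the fold change set the direction. HISAT2, StringTie and GRCh38 are named in the submitters' processing notes. The annotation is not given in the sources used here. Total RNA was extracted with a ReliaPrep kit, and 1 µg of it went into TruSeq stranded mRNA libraries, per the labels' protocols.

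The authors' mean normalized counts summed to between 20453740 and 22760512 over a table, and for EPCAM they were 21.69 and 84.04 in the A549 tables and 314.3 and 640.7 in the H2023 tables. Totals per library are unknown, so no interval or floor was set for a TPM of 0. Across genes, r between the replicates of a group was 0.983 to 0.992, and at most 0.713% of genes had the same value in both.

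Because no raw counts were used, limma (version 3.58.1, R 4.3.3) was fitted with a mean-variance trend to log2(TPM + 1) of all genes, unfiltered, in 8 groups with 8 residual degrees of freedom. All 7 members also had a mean of at least 1 TPM, as had 14823 genes. There were 16 comparisons: 4 of knockout with wild type, 4 of cultures, 2 of wild-type lines and 6 differences of effects, of which the 2 differences of the culture effect between lines were added after seeing the data. A difference is oncosphere minus normal, or H2023 minus A549. The test was checked on simulated data. Each comparison was repeated with pseudocounts of 0.1 and 5 TPM, a minimum mean of 1 TPM, 3 other scalings, a fit of the compared groups only, no trend, a replicate block, the authors' values and each library left out. Named genes are the 7 members, ZC3H12A, the genes of the lists that passed the test in the comparison described or reached 10 TPM in a group, and the 3 most and 1 least alike genes of CDH1, CDH2 and EPCAM, among genes that reached 10 TPM in a group with an SD of at least 0.5. The members and lists were chosen with earlier results of these data known. Listed genes that were not measured were not analysed here, and 1 result is not reported here. Python 3.11.15 was used for tables and figures.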

Additional observations from a re-analysis of the deposited data

Results flagged for a closer look

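For 9 results the effect of the edit or of the culture differed between cultures or lines by a test of the difference itself (limma over 16 libraries, adjusted over all genes). The knockout effect on EPCAM was lower in oncosphere than in normal culture of A549 by -1.66 (SE 0.41, adjusted p = 0.0269) on the log2 scale, a call lost under 7 of 17 other settings.

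In oncosphere culture the knockout effect was higher in H2023 than in A549 by 1.65 for EPCAM (SE 0.41, adjusted p = 0.0168), by 0.45 for CTNNA1 (SE 0.11, adjusted p = 0.0166) and by 0.38 for CTNNB1 (SE 0.10, adjusted p = 0.0277). These calls were lost under 6 (EPCAM, with a value down to 0.61), 4 (CTNNA1) and 10 (CTNNB1) of 17 other settings. EPCAM had a lower mean in knockout in both lines, CTNNB1 a higher mean in both, and CTNNA1 a higher mean in H2023 and a lower one in A549.

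The culture effect in wild type was lower in H2023 than in A549 by -1.61 for CDH1 (SE 0.45, adjusted p = 0.033), by -0.67 for CTNNA1 (SE 0.11, adjusted p = 0.00315) and by -0.84 for CTNND1 (SE 0.21, adjusted p = 0.0205), lost under 8, 0 and 5 of 17 other settings. In knockout it was lower by -2.76 for CDH1 (SE 0.45, adjusted p = 0.00422) and by -0.56 for CTNNA1 (SE 0.11, adjusted p = 0.0127), lost under 0 and 3 of 17. The median of all genes was -0.14 in the wild-type difference and -0.13 in the knockout difference. CDH1 had a higher mean in oncosphere culture in A549 and a lower mean in H2023, in both genotypes.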

How the results depend on the processing

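The 7 members gave 1652 log2 values under other settings, of which 1428 kept their direction and their side of the threshold. Each group has 2 libraries, so 1 library can end a call, and a group left with 1 library is assumed to vary like the others. The depth behind EPCAM in A549 limits its values. Under the fit of only the groups compared, members called were 1 in A549 normal, 1 in A549 oncosphere, 0 in H2023 normal and 0 in H2023 oncosphere knockout comparisons, 2 in A549 knockout culture, 1 in H2023 wild-type culture, 2 for the culture difference in A549 and 0 for the line difference in oncosphere culture. All genes called in that fit fell from 3233 to 1971, 3780 to 2413, 546 to 0 and 1014 to 0 in the knockout comparisons (limma, with 3314 and 2828 at an unadjusted p under 0.05 in the last 2), from 4986 to 1105 in H2023 wild-type culture, and from 2966 to 1795 and 2574 to 1327 for the line differences of the knockout and culture effect.

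In A549 oncosphere knockout comparisons 1 member was called with a pseudocount of 0.1 TPM, a mean of at least 1 TPM, no trend, and in the authors' deposited values. In H2023 normal knockout comparisons 2 were called with a pseudocount of 5 TPM, mitochondrial genes left out, quantile normalization and median centring, and 0 with no trend and in the authors' deposited values. For the culture difference in A549, 0 were called with a pseudocount of 0.1 or 5 TPM. For the culture effect between lines in knockout, 1 was called with mitochondrial genes left out and with median centring. With each library left out in turn, members called ranged from 0 to 2 in A549 normal, 1 to 1 in A549 oncosphere and 0 to 0 in H2023 normal knockout comparisons, 2 to 3 in A549 knockout and 3 to 4 in H2023 wild-type culture, 3 to 5 between lines in oncosphere culture, 0 to 1 for the culture difference in A549, 0 to 3 for the line difference in oncosphere culture, and 1 to 3 and 1 to 2 for the culture effect between lines in wild type and knockout.

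Replicates share only a number. The correlation of deviations of same-numbered libraries was 0.075, 0.131, 0.027 and 0.461 in the A549 normal, A549 oncosphere, H2023 normal and H2023 oncosphere comparisons. With the number as a replicate block, genes called were 3768, 4321, 684 and 1289, and members called were 1 in A549 oncosphere, 0 in H2023 normal and 3 in H2023 oncosphere knockout comparisons and 2 for the culture difference in A549.

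Some directions turned, mostly for values near 0. With mitochondrial genes left out, quantile normalization and median centring, CTNNB1 in H2023 wild-type culture, which was called, gave 0.0157, 0.0121 and 0.0136, CTNNA1 in A549 normal knockout 0.0108, 0.0725 and 0.0053 (0.0178 in the authors' deposited table), CTNNA1 between lines in normal culture -0.0316, -0.0198 and -0.2146, CTNND1 for the line difference in normal culture -0.0164, -0.0821 and -0.0033, and CTNNB1 for the culture effect between lines in wild type 0.0402, 0.073 and 0.1495. Leaving out mitochondrial genes and quantile normalization gave 0.0838 and 0.0548 for CTNND1 and 0.0777 and 0.0585 for CTNNA1 in A549 wild-type culture. Median centring gave -0.0771 for JUP between lines in normal culture. CDH2 for the culture difference in H2023 gave -0.0469 with a pseudocount of 5 TPM, -0.0798 with quantile normalization and -0.0689 with centring. For the line difference in normal culture CDH2 gave 0.0345 with that pseudocount and 0.0173 with quantile normalization, and EPCAM gave -0.1394 with that pseudocount. CDH2 for the culture effect between lines in wild type gave 0.0054 with quantile normalization.

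With 1 library left out, ranges that crossed 0 were, for CDH1, -0.51 to 0.0606 between lines in normal culture, -0.25 to 0.72 for the culture difference in H2023, -0.83 to 0.14 for the line difference in oncosphere culture, and -0.65 to 0.0307 and -0.56 to 0.41 in H2023 normal and oncosphere knockout. For CDH2 they were -0.28 to 0.32 for the culture difference in H2023 and -0.19 to 0.16 and -0.48 to 0.12 for the line differences in normal and oncosphere culture. For CTNNA1 they were -0.0439 to 0.0491 between lines in normal culture and -0.0718 to 0.0212 in A549 normal knockout, and for CTNNB1 -0.0207 to 0.0393 for the culture effect between lines in knockout and -0.0119 to 0.0683 in A549 normal knockout. For CTNND1 they were -0.0881 to 0.13 for the line difference in normal culture, -0.0678 to 0.15 and -0.0175 to 0.14 in A549 and H2023 normal knockout, and -0.16 to 0.0536 in A549 wild-type culture. For EPCAM they were -0.64 to 0.20 for the culture difference in H2023, -0.0323 to 0.46 for the line difference in normal culture and -0.0059 to 0.49 in A549 knockout culture. For JUP they were -0.46 to 0.74 between lines in normal culture and -1.14 to 0.0598 for the culture effect between lines in wild type. The cause of these changes was not tested.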
